A study of Arabidopsis thaliana with 18 samples.

Results

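Freshly isolated leaf protoplasts that carry mutant alleles of *ARF7* and *ARF19*, and the same kind of protoplasts after 4 days of culture, form the 2 groups described here. They comprise 3 *nph4-1 arf19-1* libraries at Day 4 and 3 at Day 0, which is 6 of the 18 libraries in the series, and were chosen by their titles. The other libraries are *nph4-1 arf19-1* at Day 6 and WT at Days 0, 4 and 6, with 3 in each group. *nph4-1* and *arf19-1* are alleles of *AUXIN RESPONSE FACTOR 7* (*ARF7*, also called *NPH4*) and *ARF19*, combined in 1 double mutant line of Arabidopsis thaliana in the Col-0 background. All protoplasts came from rosette leaves of plants grown in continuous light. The Day 0 protoplasts are labelled fresh. The Day 4 protoplasts, labelled control, had been embedded in alginate and kept in the dark in a medium with glucose, mannitol, the synthetic auxin 2,4-D and the cytokinin thidiazuron. Both genotypes were cultured in this medium, so no library shows culture without the 2 hormones. Day 0 and Day 4 differ in age, light, sugar, hormones and time since wall digestion, and the contributions of these cannot be told apart. Leaves of many plants were combined in each preparation, and each library averages all protoplasts in it, whether or not they went on to divide. RNA was sequenced from stranded mRNA libraries, and reads were counted per splice variant.

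Auxin is perceived by TIR1/AFB F-box proteins, which target Aux/IAA repressors for degradation and thereby release ARF transcription factors. ARF7 and ARF19 are activating ARFs with overlapping roles in lateral root formation and tropic growth, where they induce *LBD*, *Aux/IAA* and *GH3* genes. A leaf mesophyll cell that has lost its wall rebuilds it, takes down its photosynthetic apparatus and, when auxin and cytokinin are supplied, can re-enter the cell cycle and form callus.

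Depth and scaling bear on every value below. The authors' totals of mapped reads were 5887355, 4725546 and 4124789 in the Day 4 libraries, against 8859411, 9760567 and 8155070 in the Day 0 libraries. Expression is given as CPM, reads per 1000000 of the library size after trimmed mean of M values (TMM) scaling, and log2FC is Day 4 minus Day 0. A gene is said to rise or fall, or to be upregulated or downregulated, where log2FC was over 2 in size and the false discovery rate (FDR) of edgeR's quasi-likelihood test was under 0.01. The 3 libraries of each group are separate samples, and where they were not separate cultures the FDR measures a technical spread. In bulk samples, fewer cells of a type and less RNA per cell cannot be told apart. The 50 most abundant loci took 16.4% to 18.5% of the reads at Day 4, against 21.5% to 23.5% at Day 0. Scaling by library totals alone moved the median log2FC of all loci from 0.19 to 1.25, a shift of 1.05. Under that scaling any log2FC between 0 and -1.05 changes its sign. Log2 levels correlated at 0.9773 to 0.9835 among the Day 4 libraries, at 0.9821 to 0.9871 among the Day 0 libraries and at 0.7107 to 0.7439 between the days. The first principal component separated the days and held 93.15% of the variance.

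Both mutated genes were still transcribed. *ARF7* (AT5G20730) had 12.5, 10.04 and 12.4 CPM in the Day 4 libraries, against 46.6, 37.7 and 49.8 CPM in the Day 0 libraries. Its log2FC was -1.93 ± 0.12 (SE, FDR = 1.48e-11), just short of the limit for a fall, and the days did not overlap. In WT protoplasts *ARF7* had 38.8, 35.9 and 33.7 CPM at Day 4, against 156, 170.1 and 165 CPM at Day 0, and on either day every WT library was above every mutant one. *ARF19* (AT1G19220) had 9.67, 9.87 and 8.75 CPM at Day 4, against 10.3, 11 and 13.2 CPM at Day 0, a log2FC of -0.27 ± 0.19 (FDR = 0.194). In WT it had 60.9, 50.9 and 42.9 CPM at Day 4, against 11.5, 9.21 and 7.09 CPM at Day 0. The 2 genotypes therefore stood apart in *ARF19* at Day 4 but not at Day 0, when the mutant and WT libraries overlapped. The change in the mutant minus that in WT was -2.75 ± 0.26 (FDR = 7.79e-07). For *ARF7* this difference was 0.25 ± 0.16 (FDR = 0.295).

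Transcript levels differed widely between cultured and fresh protoplasts of the mutant. Of 18143 loci tested, 3825 (21.1%) rose and 2316 (12.8%) fell in *nph4-1 arf19-1*, so that 62.3% of the changed loci were higher at Day 4. Under library totals alone 6570 rose and 841 fell, which makes 88.7% higher, so counts of falls depend on the scaling. The 3 Day 4 libraries did not overlap the 3 Day 0 libraries at 14788 loci (81.5%). At the lower limit of 1 for log2FC, 5981 loci (33%) were higher and 4958 (27.3%) lower. In WT 4639 loci (25.6%) rose and 2718 (15%) fell over the same days. The genotypes shared 3344 of the rises, which is 87.4% of those in the mutant and 72.1% of those in WT. They shared 1930 of the falls, 83.3% of those in the mutant and 71% of those in WT. Since each genotype has its own Day 0 libraries, no library is used in both lists.

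The largest rises included genes for the ER body, secreted defence proteins and wall proteins. ER bodies are compartments of the endoplasmic reticulum, found in Brassicaceae, that store a β-glucosidase. *NAI2*, which is needed to form them, had 416, 386 and 291 CPM at Day 4 and no read in any Day 0 library, which makes it at least 1947-fold higher on counts. *PBP1*, a jacalin-like lectin that binds this β-glucosidase, had 339, 400.3 and 296 CPM at Day 4 and no read at Day 0 (at least 1816-fold). *PYK10*, the β-glucosidase itself, had 1336, 1134 and 868 CPM at Day 4, against 0, 0 and 0.658 CPM at Day 0, a ratio of 5987-fold (95% counting interval 2049 to 29036). All 3 were thus almost absent from fresh protoplasts and abundant after culture. In WT their means at Day 4 were 98.3, 19.5 and 80.2 CPM, lower than in each mutant library, but the difference between the genotypes in the change was not past the limits (FDR = 0.277, 0.0659 and 0.0135).

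The other leading rises included genes for secreted or stress-related proteins. *DOX1*, a fatty acid α-dioxygenase of oxylipin synthesis, had 347, 271 and 332 CPM at Day 4 and no read at Day 0 (at least 1668-fold). *OSM34*, an osmotin of the PR-5 family, had 1315, 1149 and 1498 CPM at Day 4, against 0.19, 0.17 and 0.219 CPM at Day 0, a ratio of 6868-fold (95% counting interval 2350 to 33306). *FLS5*, annotated as a flavonol synthase, averaged 421 ± 20.2 CPM at Day 4 (SD, n = 3) and had 1 read at Day 0. *LAC7*, a laccase, *EXPB3*, a β-expansin, *AT5G26280*, a TRAF-like protein, and *AT2G19970*, of the CAP family that includes PR1, averaged 105, 91.1, 112 and 84.9 CPM at Day 4 and had no read at Day 0. They were at least 562-fold, at least 472-fold, at least 598-fold and at least 446-fold higher. *AT4G12490*, which encodes a lipid-transfer-like protein, reached the highest level of any nuclear gene per length at Day 4. It had 18246, 15979 and 21836 CPM at Day 4, against 0.19, 0.85 and 6.58 CPM at Day 0 (log2FC = 12.95 ± 0.53, FDR = 2.09e-14). Its neighbours on chromosome 4, *AT4G12500* and *EARLI1*, rose by 12.51 and 8.28 on the log2 scale. The 3 loci are close copies, and how their reads were divided among them is uncertain.

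**Figure D1:**
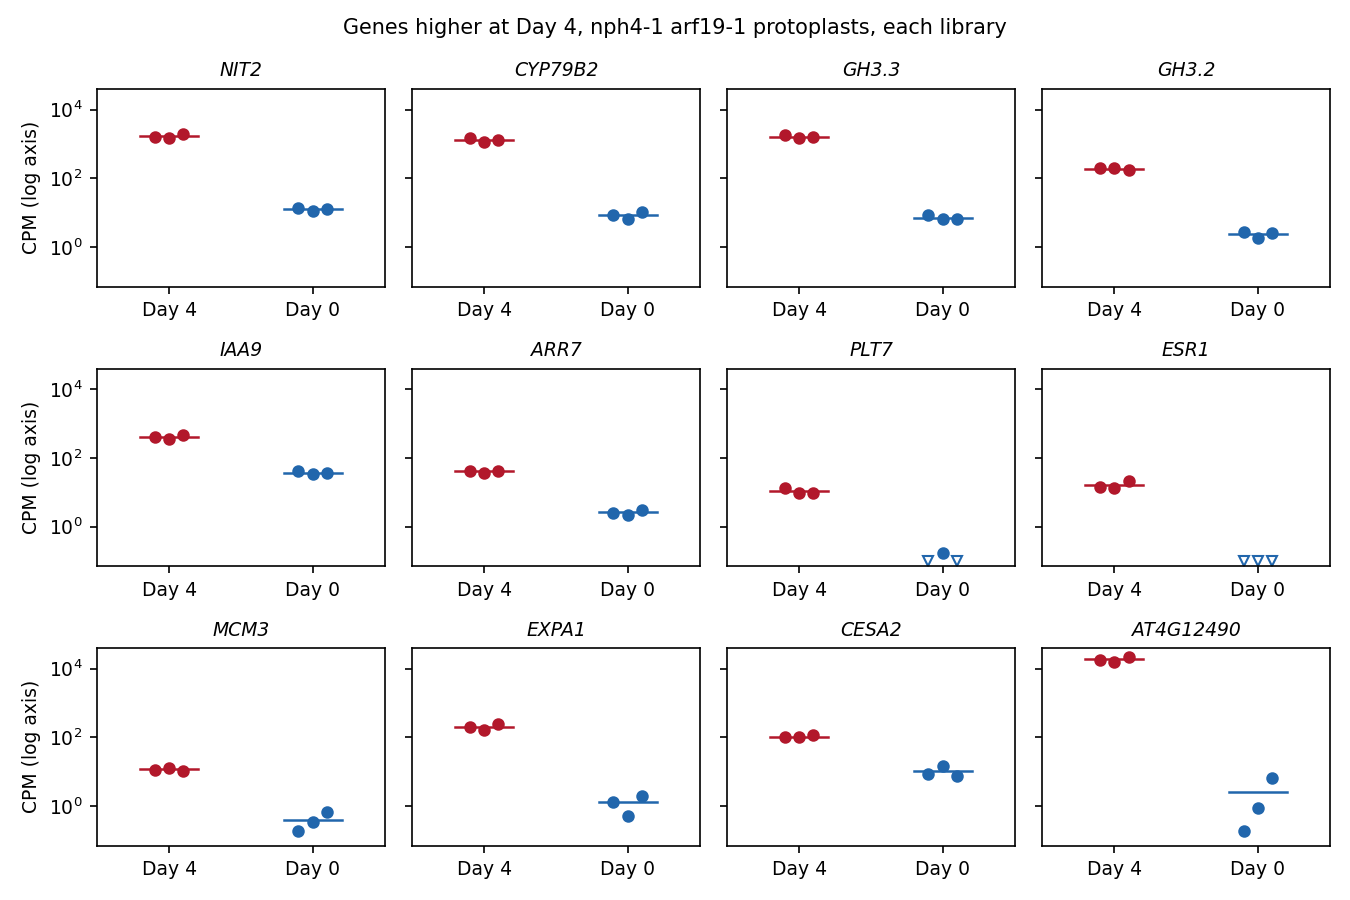
Expression of 12 genes that rose, in each *nph4-1 arf19-1* library at Day 4 (red, left) and Day 0 (blue, right). The vertical axis is CPM on a log scale, points are libraries, horizontal lines are means of 3 libraries, and open triangles mark libraries below 0.1 CPM, all of which had 0 reads. In each panel the 3 Day 4 libraries lie above the 3 Day 0 libraries, from *IAA9* with 395 against 37.3 CPM to *AT4G12490*.

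The 12 largest falls were of genes with varied functions. *MYB4*, a repressor of phenylpropanoid genes, had 10.5, 8.48 and 10.6 CPM at Day 4, against 954, 942 and 954 CPM at Day 0 (log2FC = -6.59 ± 0.27). *UGT84A2*, a glucosyltransferase of sinapate metabolism, had 6.67, 6.75 and 6.71 CPM at Day 4, against 641, 614 and 668 CPM at Day 0 (log2FC = -6.57 ± 0.18). *ABCG40*, an importer of abscisic acid, had 249, 272 and 202 CPM at Day 4, against 17913, 16768 and 22578 CPM at Day 0 (log2FC = -6.31 ± 0.29). These fell by far more than the 1.05 that the scaling can add. *AT2G44130*, a kelch-repeat F-box type gene, and *AT4G03450*, an ankyrin repeat gene, both had a log2FC of -7.05. The remaining 7 of the 12 largest falls were *SHB1* (-6.93), the cupin gene *AT3G04300* (-6.63), the hydrolase gene *AT1G10040* (-6.3), the small heat shock protein gene *AT1G52560* (-5.89), the receptor-like kinase gene *WAKL7* (-5.88), the peroxisomal membrane protein gene *AT4G33905* (-5.86) and the RWP-RK gene *AT1G20640* (-5.75). FDRs of all 12 were between 3.19e-16 and 1.46e-10.

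The most abundant nuclear transcripts per kilobase also changed. At Day 4 they were led by *AT4G12490* (23775 CPM per kb), *AT2G01021*, *EARLI1* (8075), the trypsin inhibitor *TI1* (6054), the peroxidase *PRXCB* (5530.2), *GSTF6* (4225), *GSTF7* (3390.5), the peroxidase *AT5G64120* (3149.5), the extensin *EXT3* (3144) and *GSTF2* (2296). *AT2G01021* lies among the ribosomal RNA genes of chromosome 2, and its level was 766, 826 and 2078 CPM at Day 4. At Day 0 the list was led by *GSTU19* (10198 CPM per kb), *HSP90.1* (8316), *GSTF6* (7712), the polyubiquitin gene *UBQ10* (7102), *GSTF8* (7054), *OPR1* (6724), *HSP70-4* (6614), *SRC2* (6495), *NADP-ME2* (6154) and *GSTF7* (5745). Only *GSTF6* and *GSTF7*, 2 neighbouring and near-identical glutathione transferase genes, were in both lists.

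**Figure D2:**
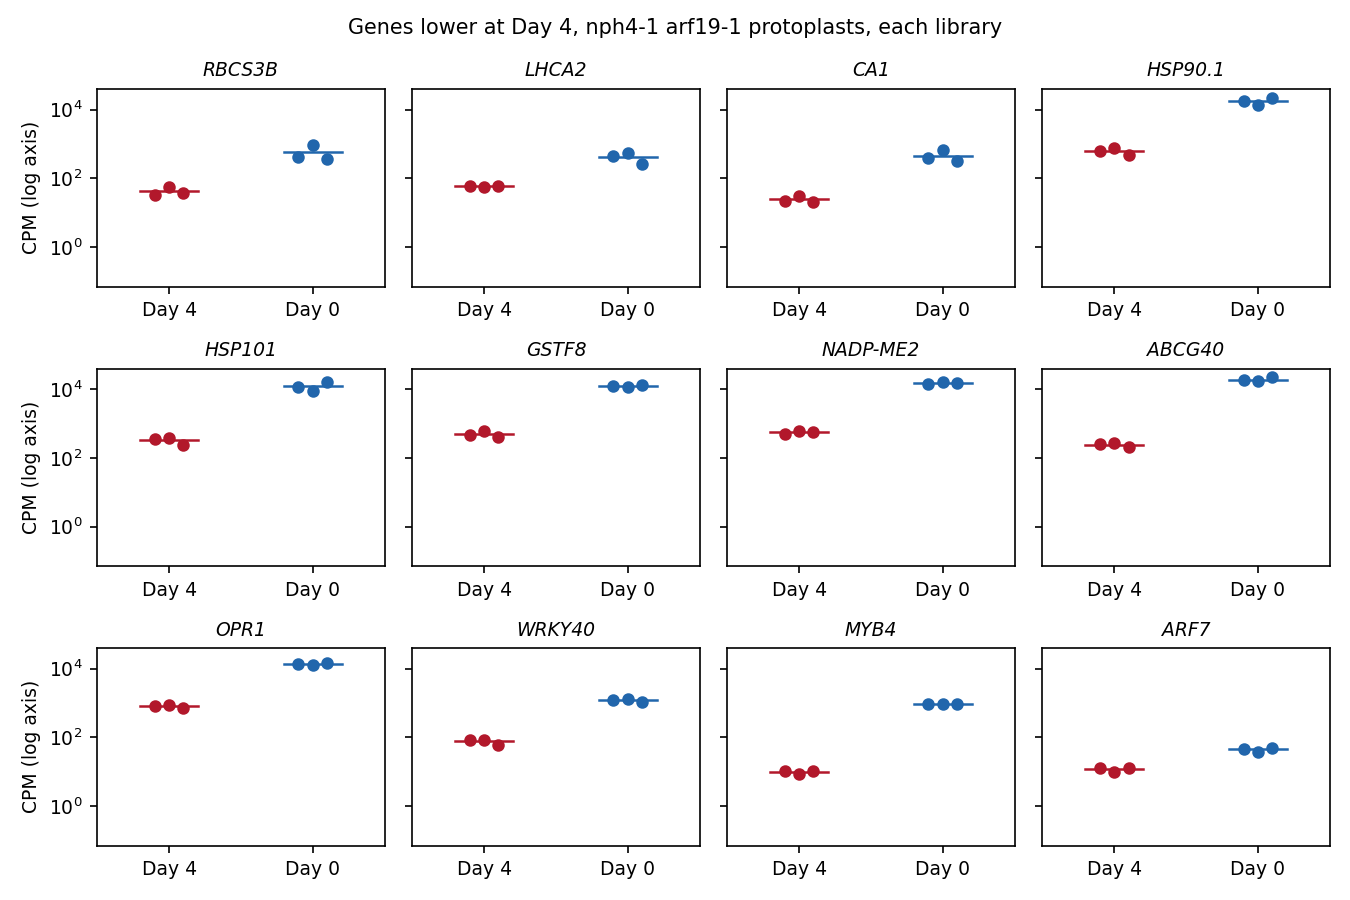
Expression of 12 genes that were lower at Day 4, in each *nph4-1 arf19-1* library at Day 4 (red, left) and Day 0 (blue, right). The vertical axis is CPM on a log scale, points are libraries and horizontal lines are means of 3 libraries. The days do not overlap in any panel, and *ARF7*, the last panel, is the 1 gene shown whose log2FC (-1.93) was within the limit of 2.

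In the mutant, photosynthesis genes of the nucleus had negative medians, whereas those of the chloroplast had positive ones. Of 26 genes of the light-harvesting complex, which feeds excitation to the photosystems, 8 fell and none rose, against 12.8% of all loci that fell, and their median log2FC was -1.65. The median was -0.6 under library totals alone. *LHCA2*, an antenna protein of photosystem I, had 57.9, 56.9 and 60.6 CPM at Day 4, against 435, 564 and 264 CPM at Day 0 (log2FC = -2.85 ± 0.29, FDR = 1.32e-08). *CAB3*, a gene for the main antenna and a mesophyll marker, had 20.7, 22.8 and 25.6 CPM at Day 4, against 189, 318 and 74.3 CPM at Day 0 (log2FC = -3.08). The Day 4 libraries were alike in *CAB3*, while the Day 0 libraries spread over more than 4-fold, replicate 2 being highest and replicate 3 lowest. *LHCB1.1*, *LHCB1.3*, *LHCB1.4* and *CAB3* are near-identical copies, and since reads with several hits were not kept, their separate values are uncertain.

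All 4 nuclear genes for the small subunit of RubisCO, the carbon-fixing enzyme, fell, beside 12.8% of all loci. *RBCS3B* had 32.5, 55 and 37 CPM at Day 4, against 407, 963 and 360.2 CPM at Day 0 (log2FC = -3.8 ± 0.35). *RBCS1A* had 104, 134 and 165 CPM at Day 4, against 707, 1229.5 and 584 CPM at Day 0 (log2FC = -2.65 ± 0.33). Replicate 2 was again the highest Day 0 library, and the members of this family also share sequence. The chloroplast gene for the large subunit, *RBCL*, had a log2FC of 1.29 ± 0.74 (FDR = 0.116). *CA1* (AT3G01500), the chloroplast β-carbonic anhydrase, averaged 24.6 ± 5.81 CPM at Day 4 and 455 ± 189 CPM at Day 0 (SD, n = 3 each).

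The 2 photosystems split in the same way by genome. Of 25 nuclear genes of photosystem II 8 fell and none rose (median -1.26, or -0.21 under library totals alone), while of its 15 chloroplast genes none did either (median 0.38). Over the whole list the median was -0.48, which turned to 0.57 under library totals alone. *PSBR*, a subunit of the oxygen-evolving side, had 132, 163 and 172 CPM at Day 4, against 711, 912 and 536 CPM at Day 0 (log2FC = -2.21). Of 18 nuclear genes listed for photosystem I 4 fell, 1 rose and the median was -1.64, or -0.59 under library totals alone, while 3 of its 5 chloroplast genes rose (median 2.18). The nuclear gene that rose, *PSAT-2* (4.17), is annotated as a pyridoxal phosphate-dependent transferase and not as a photosystem subunit. *PSAF* averaged 77.9 CPM at Day 4 and 360.1 CPM at Day 0, and *psaA* averaged 238 CPM at Day 4 and 51.5 CPM at Day 0. In WT the chloroplast genes had medians of -0.48 for photosystem II and 0.09 for photosystem I. No gene of either list differed between the genotypes in its change by the test of the difference. Over all 84 chloroplast-encoded loci 24 rose and none fell, beside 21.1% and 12.8% of all loci, and the median was 1.42. Together they held 2.87% to 5.21% of the reads at Day 4, against 1.26% to 1.52% at Day 0. Their Day 0 values were uneven, since *psbA*, for the D1 reaction centre protein, had 74, 113 and 1067 CPM, and they come from libraries made for polyadenylated RNA, in which organelle transcripts are captured incompletely.

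Genes for tetrapyrroles and for the plastid's own upkeep were counted apart from the antenna. Chlorophyll synthesis genes had 2 rises and 1 fall among 24, fewer of each than the 21.1% and 12.8% of all loci. *CHLI1/CH42* (45 CPM at Day 4 and 6.75 CPM at Day 0), a magnesium chelatase subunit, and *PORB* (34.3 and 6.31 CPM), a light-dependent reductase, rose. *HEMA2*, a glutamyl-tRNA reductase at the start of the pathway, fell and averaged 123 CPM at Day 4 and 1135 CPM at Day 0. The list's median of -0.45 turned to 0.6 under library totals alone. Among 12 genes of chlorophyll breakdown 5 fell, including *SGR1* (-2.72) and *NYC1* (-2.43), which start the breakdown, and 2 rose, *NYE2/SGR2* and the synthesis enzyme *CAO*. Of 29 genes for chloroplast gene expression and protein import 10 rose and 2 fell (median 1.5), with *CREF3* and *TIC214/YCF1.2* highest by change and *SIG5* (-3.05) and *HCF173* (-2.2) lowest. Of 18 genes for chloroplast division 1 rose, *ARC1/FTSHI1* (2.46).

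Mesophyll markers fell with these genes. Of 8 markers 6 fell, beside 12.8% of all loci. The summed level of the 8 was 383 to 488 CPM at Day 4, against 1936 to 4643 CPM at Day 0. Of 6 guard cell markers 4 could be tested, and their sum was 826 to 866 CPM at Day 4, against 282 to 358 CPM at Day 0, almost all of it from the proton pump gene *OST2* (836 and 331 CPM). *FAMA*, a guard cell transcription factor, averaged 10.3 CPM at Day 4 and 1.13 CPM at Day 0. The sum of vascular markers was 12.3 to 16.1 CPM at Day 4, against 5.48 to 9.52 CPM at Day 0, with *VND7* at 0. Its members went both ways, since *ATHB8* had 81, 47 and 55 reads at Day 4, against 3, 2 and 0 at Day 0, and *SWEET12* had 0, 2 and 2 reads at Day 4, against 35, 46 and 22 at Day 0. Of the epidermal markers *ATML1* and *PDF1* were at or near 0 in every library, and *LTP1* was 7.93 to 10.6 CPM at Day 4, against 2.09 to 5.61 CPM at Day 0. The part of other leaf cell types in the results was not tested.

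**Figure D3:**
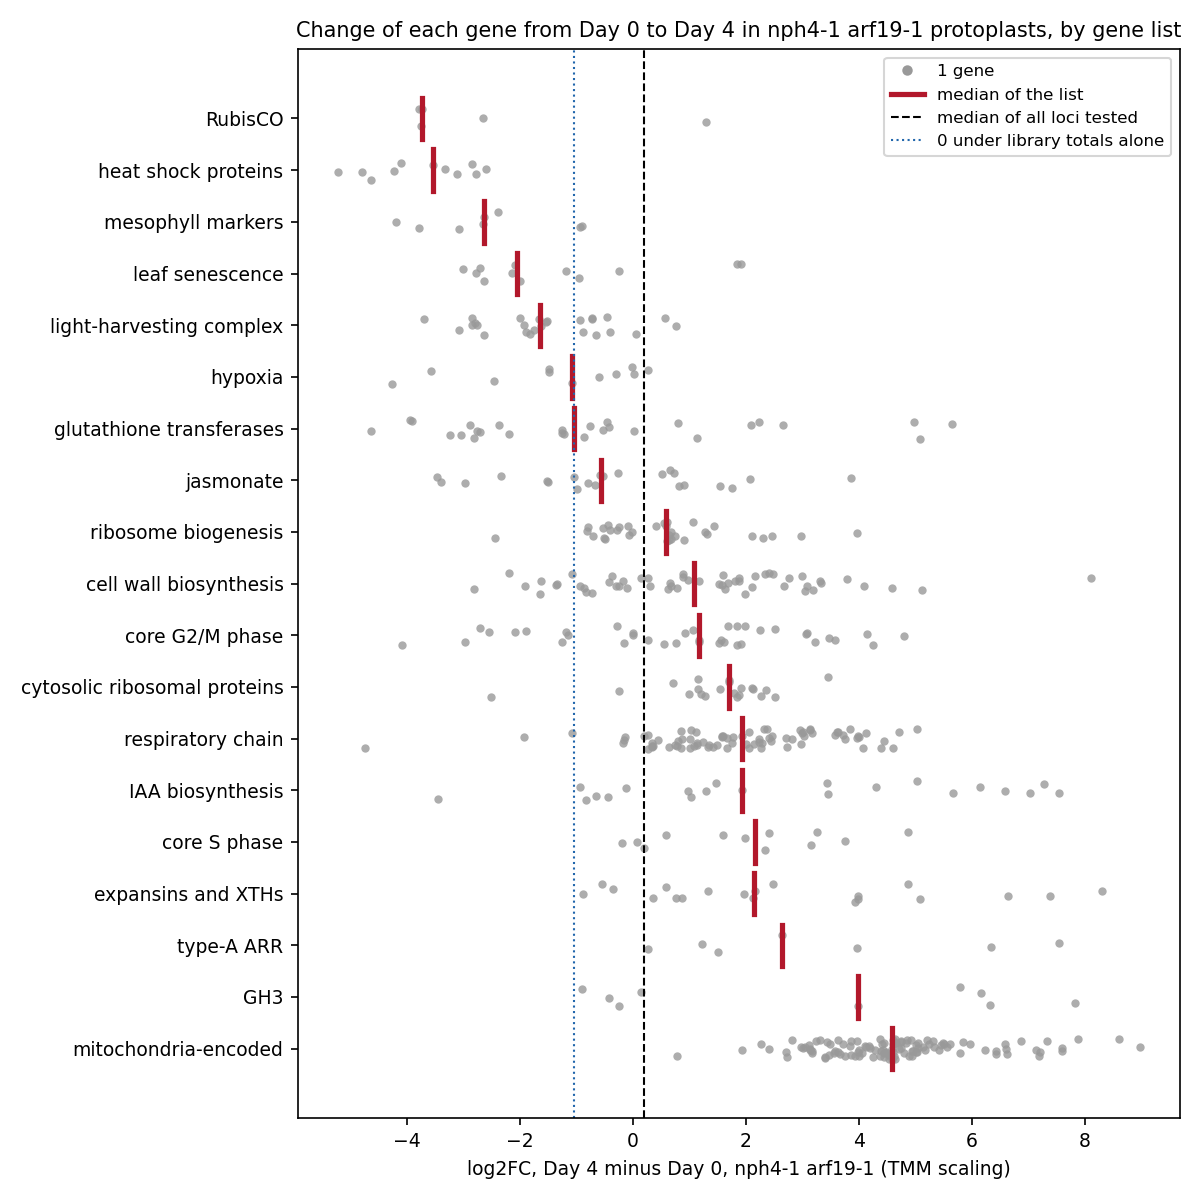
log2FC from Day 0 to Day 4 in *nph4-1 arf19-1* of every gene tested in 19 lists (grey points, scattered vertically for legibility), with the median of each list (red bar). The dashed line is the median of all 18143 loci tested (0.19), and the dotted line is the value that becomes 0 under library totals alone. The medians run from -3.73 for RubisCO and -3.55 for heat shock proteins to 3.99 for *GH3* and 4.58 for mitochondria-encoded loci, and those of the jasmonate and glutathione transferase lists lie to the right of the dotted line.

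Mitochondrial transcripts rose almost without exception. Of 115 mitochondria-encoded loci 113 rose and none fell, beside 21.1% and 12.8% of all loci. Their median log2FC was 4.58, or 4.48 with loci without Day 0 reads at their lower bound. They held 0.82% to 1.31% of the reads at Day 4, against 0.046% to 0.049% at Day 0. *COX1*, a subunit of cytochrome c oxidase, had 188, 273 and 295 CPM at Day 4, against 13.1, 13.1 and 21.7 CPM at Day 0 (log2FC = 3.99 ± 0.26, FDR = 1.46e-11). *NAD7*, a subunit of complex I, had 177, 245 and 317 CPM at Day 4, against 8.56, 10.4 and 11.6 CPM at Day 0 (log2FC = 4.6 ± 0.24). The 2 that did not pass the limits were *NAD6* (0.78) and *ATMG01190* (1.93). In WT 94 of the 115 rose, beside 25.6% of all loci. The median in WT was 2.90 and the share of reads at Day 4 was 0.284% to 0.499%. The change was larger in the mutant by the test of the difference for 7 of them, against 0.92% of all loci. The caution on polyadenylated RNA holds here too, and the part of capture and polyadenylation was not tested.

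Some nuclear genes for respiration rose as well. Of 62 nuclear genes of the respiratory chain 23 rose and 1 fell, beside 21.1% and 12.8% of all loci, and 42 were higher at the limit of 1, beside 33% of all loci (median 1.45). Genes were counted as nuclear by their locus IDs. The largest rise among them was that of *AT2G07785* (5.03), an NADH dehydrogenase family gene on chromosome 2. Whether its reads come from mitochondrial transcripts was not tested. *AT5G52840*, for a subunit of complex I, had 95.1, 87.2 and 111 CPM at Day 4, against 7.03, 9.18 and 7.67 CPM at Day 0 (log2FC = 3.61). *CYC1-1*, a cytochrome c1 gene, had 184, 165 and 199.9 CPM at Day 4, against 34.8, 30.4 and 41.2 CPM at Day 0 (log2FC = 2.37). *AT5G25450*, for a subunit of the cytochrome bc1 complex, was the exception and had 23.6, 24.8 and 30.3 CPM at Day 4, against 664, 567 and 874 CPM at Day 0 (log2FC = -4.75). For the tricarboxylic acid cycle the counts were even, with 3 rises and 3 falls among 29 genes, fewer of each than the 21.1% and 12.8% of all loci (median 0.08). The cytosolic malate dehydrogenase *C-NAD-MDH1* averaged 778 CPM at Day 4 and 159 CPM at Day 0.

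Genes described by name as cytosolic ribosomal proteins were mostly higher at Day 4. Only 27 loci had such a description, and ribosomal protein genes described in other words were not counted. The 21 genes whose annotation names a cytosolic ribosomal protein had 6 rises and 1 fall at the limit of 2, beside 21.1% and 12.8% of all loci, and 17 were higher at the limit of 1, beside 33% (median 1.71). *AT4G25890* and *AT5G47700*, for acidic stalk proteins of the 60S subunit, had 19.6, 21.3 and 22.6 and 97.6, 100.2 and 112 CPM at Day 4, against 1.71, 2.04 and 1.97 and 15.6, 22.3 and 22.4 CPM at Day 0. *AT1G01100*, of the same family, had 189.7, 204 and 218 CPM at Day 4, against 31.9, 38.4 and 36.2 CPM at Day 0 (log2FC = 2.52 ± 0.12). *RPL18AA* alone fell, and averaged 24.6 CPM at Day 4 and 140.4 CPM at Day 0. Genes for ribosome assembly had 5 rises and 1 fall among 34, fewer of each than the 21.1% and 12.8% of all loci (median 0.59). The 5 that rose encode core proteins of small nucleolar RNPs, *FIB2* (3.96), *CBF5* (2.98), *NOP5-2* (2.47), *NOP56* (2.3) and *NOP5-1* (2.11).

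The 250 bases upstream of the 3 largest ribosomal protein rises are shown because such promoters often carry a short element, TGGGCC, that the whole list can be searched for. The sequences are from RefSeq (TAIR10.1) and run 5′ to 3′ on the gene's strand, and capitals mark matches on either strand to AAACCCTA (the telo-box), TGGGCC (the site II element), TGTCTC (the auxin response element), AACGG (the core of elements bound by MYB3R proteins), TTGAC (the core of the W-box) and CACGTG (the G-box). They lie at chr4:13160566-13160815, chr1:51211-51460 and chr5:19328987-19329236, all on the minus strand.
AT4G25890: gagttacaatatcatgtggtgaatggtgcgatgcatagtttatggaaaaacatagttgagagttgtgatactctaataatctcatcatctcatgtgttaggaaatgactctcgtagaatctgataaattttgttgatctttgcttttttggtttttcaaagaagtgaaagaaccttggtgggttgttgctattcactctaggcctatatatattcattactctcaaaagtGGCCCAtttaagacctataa
AT1G01100: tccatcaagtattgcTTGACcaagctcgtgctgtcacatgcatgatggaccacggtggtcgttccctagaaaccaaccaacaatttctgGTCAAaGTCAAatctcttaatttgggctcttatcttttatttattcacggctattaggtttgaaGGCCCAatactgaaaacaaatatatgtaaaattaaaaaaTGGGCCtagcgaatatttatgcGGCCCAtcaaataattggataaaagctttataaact
AT5G47700: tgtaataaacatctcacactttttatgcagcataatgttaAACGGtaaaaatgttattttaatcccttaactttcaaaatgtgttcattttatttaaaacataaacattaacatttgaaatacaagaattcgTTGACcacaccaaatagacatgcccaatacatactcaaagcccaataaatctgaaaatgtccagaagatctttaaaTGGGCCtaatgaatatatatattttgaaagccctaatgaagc
Each window holds TGGGCC or its complement GGCCCA, and AT1G01100 holds it 3 times. The motif was in 12 of the 21 windows of this list (57.1%), in 21 of 62 windows of nuclear respiratory chain genes (33.9%), in 17.6% of the windows of tested loci and in 13.7% of 27437 windows of protein-coding genes. It was in 17.7% of the windows of loci that rose and in 11.2% of those that fell. AAACCCTA was in 4 of the 21 windows (19%) and in 3.65% of those of tested loci. A match of these letters is a description of the window and not a site shown to be bound.

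Cell wall genes had more rises than falls. Of 56 genes of wall biosynthesis 17 rose and 2 fell, beside 21.1% and 12.8% of all loci, with a median log2FC of 1.07, or 0.89 with loci without Day 0 reads at their bound. *CESA2*, a cellulose synthase, had 99.96, 99.9 and 116 CPM at Day 4, against 8.75, 15.1 and 7.45 CPM at Day 0 (log2FC = 3.3 ± 0.22, FDR = 2.80e-11). *CSI1*, which links cellulose synthase to microtubules, averaged 52 ± 7.94 CPM at Day 4 and 8.04 ± 1.57 CPM at Day 0 (log2FC = 2.67). *CSLD5*, a cellulose synthase-like gene linked with dividing cells, had 3.81, 8.48 and 3.05 CPM at Day 4 and no read at Day 0 (at least 26.7-fold). *FEI1*, a receptor-like kinase of wall synthesis, and *FUT1*, a xyloglucan fucosyltransferase, rose by 4.58 and 2.98 on the log2 scale. The falls were *URGT1*, a Golgi nucleotide sugar transporter (-2.82), and *EXO70A1*, an exocyst subunit (-2.19).

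Some genes for wall-loosening enzymes rose too. Of 20 expansin and xyloglucan endotransglucosylase/hydrolase (*XTH*) genes 9 rose and none fell, beside 21.1% and 12.8% of all loci (median 2.14, or 1.5 with bounds). *EXPA1* had 197, 168 and 252 CPM at Day 4, against 1.33, 0.51 and 1.97 CPM at Day 0 (log2FC = 7.38 ± 0.27). *EXPA4* had 116, 93.6 and 109 CPM at Day 4, against 0.19, 0.68 and 0 CPM at Day 0 (log2FC = 8.3 ± 0.35). *XTH4* did not pass the test (4.01 CPM at Day 4 and 7.22 CPM at Day 0), although in WT its means were 52.2 CPM at Day 4 and 0.747 CPM at Day 0, and the change differed between the genotypes by -6.96 (FDR = 1.28e-06).

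Enzymes that lead from tryptophan to indole-3-acetic acid (IAA) included some large rises. Of 21 genes of IAA biosynthesis 10 rose and 1 fell, beside 21.1% and 12.8% of all loci (median 1.93). *CYP79B2*, which makes indole-3-acetaldoxime, had 1482, 1152 and 1284 CPM at Day 4, against 8.56, 6.46 and 10.5 CPM at Day 0 (log2FC = 7.27 ± 0.26). *NIT2*, a nitrilase that converts indole-3-acetonitrile to IAA, had 1559, 1475 and 1933 CPM at Day 4, against 13.5, 11.6 and 13.2 CPM at Day 0 (log2FC = 7.02 ± 0.18). The related *CYP79B3*, *NIT1* and *NIT3* rose by 5.03, 4.3 and 6.15 on the log2 scale, and the nitrilases are close copies of each other. Acetaldoxime is also the precursor of indole glucosinolates and camalexin, so these genes do not serve IAA alone. *AAO2*, an aldehyde oxidase, had 488 reads at Day 4 over the 3 libraries, against 2 at Day 0. The indole-3-pyruvate branch had few reads, since *TAR2* averaged 1.62 CPM at Day 4 and 0.12 CPM at Day 0, and *YUC1* had 0 reads in all 6 libraries. *ALDH3I1*, an aldehyde dehydrogenase, fell and averaged 37.8 CPM at Day 4 and 415 CPM at Day 0.

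Several auxin-responsive genes rose in *nph4-1 arf19-1*. *GH3* genes encode enzymes that conjugate auxin to amino acids. Of 9, 5 rose and none fell, beside 21.1% and 12.8% of all loci, and their median log2FC was 3.99. *GH3.3* had 1789, 1524 and 1633 CPM at Day 4, against 8.37, 6.63 and 6.58 CPM at Day 0 (log2FC = 7.84 ± 0.21, FDR = 3.19e-16). *GH3.2* had 197, 196 and 177 CPM at Day 4, against 2.66, 1.87 and 2.63 CPM at Day 0 (log2FC = 6.32 ± 0.24, FDR = 8.57e-15). *GH3.17* averaged 37.7 CPM at Day 4 and 0.49 CPM at Day 0. *GH3.4* rose by a ratio of 71.4-fold (95% counting interval 12.5 to 2854), and *GH3.1* by 17.4-fold (95% counting interval 5.68 to 86.8). *GH3.1* averaged 3.25 CPM at Day 4 in the mutant and 84.2 CPM at Day 4 in WT. By edgeR's test of the difference its change was not past the limits (FDR = 0.0119). Of the 9 genes, 3 had a higher change in the mutant than in WT by that test and 1 a lower one. *GH3.5*, *GH3.9*, *GH3.10* and *GH3.6* had log2FCs between -0.91 and 0.14.

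The upstream windows of the 3 *GH3* genes with the largest changes are shown for the auxin response element TGTCTC, the letters that ARFs recognise. Source, direction, motifs and capitals are as above. They lie at chr2:9866563-9866812 (minus strand) for *GH3.3*, chr4:17579368-17579617 (plus strand) for *GH3.2* and chr1:9824919-9825168 (plus strand) for *GH3.17*.
GH3.3: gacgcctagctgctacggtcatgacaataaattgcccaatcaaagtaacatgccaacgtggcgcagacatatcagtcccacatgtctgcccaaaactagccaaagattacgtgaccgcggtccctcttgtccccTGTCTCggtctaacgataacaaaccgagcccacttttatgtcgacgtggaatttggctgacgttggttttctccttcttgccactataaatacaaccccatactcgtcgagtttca
GH3.2: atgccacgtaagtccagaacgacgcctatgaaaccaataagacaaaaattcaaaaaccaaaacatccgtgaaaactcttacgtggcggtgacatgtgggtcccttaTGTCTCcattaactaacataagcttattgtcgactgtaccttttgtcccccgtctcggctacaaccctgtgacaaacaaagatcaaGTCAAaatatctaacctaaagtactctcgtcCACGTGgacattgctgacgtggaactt
GH3.17: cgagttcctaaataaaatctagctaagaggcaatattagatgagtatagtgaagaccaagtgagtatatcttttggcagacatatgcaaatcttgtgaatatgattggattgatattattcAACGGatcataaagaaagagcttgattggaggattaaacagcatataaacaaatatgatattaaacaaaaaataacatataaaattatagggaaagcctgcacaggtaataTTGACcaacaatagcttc
TGTCTC stood once in the windows of *GH3.3* and *GH3.2* and was not found in that of *GH3.17*, which holds AACGG and TTGAC. It was in 3 of the 9 *GH3* windows (33.3%) and in 10.5% of those of tested loci.

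The *Aux/IAA* family of repressors was divided. Of 20 tested genes 8 rose and 4 fell, beside 21.1% and 12.8% of all loci (median 0.52, or 0.0 with bounds). *IAA9* had 394, 343 and 449.7 CPM at Day 4, against 42, 32.8 and 37.1 CPM at Day 0 (log2FC = 3.41 ± 0.16). *IAA26* averaged 88.5 CPM at Day 4 and 2.4 CPM at Day 0, and *IAA1* 21.2 CPM at Day 4 and 0.516 CPM at Day 0. *IAA5* had no Day 0 read and was at least 16.3-fold higher. In the other direction *IAA16* had 161, 186 and 133 CPM at Day 4, against 1612, 1447 and 1656 CPM at Day 0 (log2FC = -3.3 ± 0.15). *IAA7* had 1.63, 0.519 and 0.61 CPM at Day 4, against 37.1, 37.9 and 27.6 CPM at Day 0 (log2FC = -5.09 ± 0.41). *IAA2* and *IAA10* fell by 2.49 and 2.48 on the log2 scale, and *IAA18*, with 26, 32.4 and 22.8 CPM at Day 4, against 107, 103 and 106 CPM at Day 0, was just within the limit (-1.96). *IAA3* had 1 to 8 reads in each library and *IAA14* 0 to 3, too few to be tested.

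Other parts of the pathway changed with them. Of 15 *ARF* genes 5 rose and 2 fell, beside 21.1% and 12.8% of all loci. *ARF5*, the activator MONOPTEROS, had 90.4, 104 and 94.8 CPM at Day 4, against 16.4, 16.3 and 15.6 CPM at Day 0 (log2FC = 2.58 ± 0.13). *ARF4*, *ARF8* and *ARF17* also rose (4.38, 2.74 and 2.4), *ARF3* rose by a ratio of 57.5-fold (95% counting interval 15.6 to 479), and *ARF11* and *ARF2* fell (-2.98 and -2.68). Among 6 receptor genes *AFB5* rose (2.37), and *TIR1* had 29.3 CPM at Day 4 and 12.9 CPM at Day 0. The *LBD* genes, direct targets of ARF7 and ARF19 in roots, were low, and the 3 tested were low in WT too. At Day 4 *LBD16*, *LBD29* and *LBD18* averaged 7.07, 2.08 and 0.556 CPM in the mutant, and 6.85, 3.51 and 4.75 CPM in WT. *LBD16* had 7.9, 6.4 and 6.92 CPM at Day 4, against 0, 0.17 and 0.439 CPM at Day 0, a ratio of 37.4-fold (95% counting interval 12.5 to 184). *LBD29* and *LBD18* had no Day 0 read and at most 2.08 CPM on average at Day 4 (at least 11-fold and at least 2.9-fold higher). *LBD17* had 0 reads in all 6 libraries.

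Several cytokinin response genes rose as well. Type-A *ARR* genes are induced by cytokinin and dampen its signalling. Of 7 tested 4 rose and none fell, beside 21.1% and 12.8% of all loci (median 2.65). *ARR7* had 41, 36.3 and 42.7 CPM at Day 4, against 2.47, 2.21 and 3.07 CPM at Day 0 (log2FC = 3.96 ± 0.25). *ARR6* averaged 17 CPM at Day 4 and 0.177 CPM at Day 0, *ARR8* 23.6 CPM at Day 4 and 3.77 CPM at Day 0, and *ARR15*, with no Day 0 read, was at least 18.3-fold higher. Cytokinin oxidases, which degrade the hormone, had 3 rises and 1 fall among 7, beside 21.1% and 12.8% of all loci. *CKX4* had 105, 74.3 and 75.5 CPM at Day 4, against 14.4, 21.8 and 15.3 CPM at Day 0 (log2FC = 2.3). *CKX7*, the cytosolic member, had 0.272, 0.865 and 0.61 CPM at Day 4, against 35, 38.4 and 36.6 CPM at Day 0 (log2FC = -6.0). Thus 1 member of the family was nearly lost while *CKX5* (2.05) and *CKX2* rose, the last by a ratio of 165-fold (95% counting interval 29.2 to 6534).

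Of the cell cycle genes those of S phase come first. Of 12 core S phase genes 6 rose and none fell, beside 21.1% and 12.8% of all loci (median 2.15). *MCM3*, of the replicative helicase, had 11.2, 13 and 10.8 CPM at Day 4, against 0.19, 0.34 and 0.658 CPM at Day 0 (log2FC = 4.86 ± 0.31, FDR = 1.39e-11). *RNR1*, the large subunit of ribonucleotide reductase, had 45.4, 46.7 and 49.6 CPM at Day 4, against 8.94, 9.86 and 7.67 CPM at Day 0 (log2FC = 2.41). *ORC3*, of the origin recognition complex, averaged 4.69 CPM at Day 4 and 0.523 CPM at Day 0. Both *PCNA* genes, for the replication clamp, had log2FCs of 0.2 and 0.07 (FDR = 0.559 and 0.762). In a larger set of 169 genes expressed in S phase 65 rose and 7 fell (median 1.37).

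For G1/S the counts were mixed, with 5 rises and 2 falls among 24 genes, beside 21.1% and 12.8% of all loci, and a median of -0.20. That median turned to 0.86 under library totals alone and to 0.03 when the 6 libraries were fitted alone. *CYCD2;1* had 39.1, 35 and 45.2 CPM at Day 4, against 6.08, 5.95 and 8.33 CPM at Day 0 (log2FC = 2.56). *CYCD3;1*, a D-type cyclin responsive to cytokinin, had 3.27, 2.25 and 4.47 CPM at Day 4, against 0, 0.68 and 0 CPM at Day 0 (log2FC = 3.6). *CYCD4;1*, with no Day 0 read, was at least 10.2-fold higher. The inhibitor gene *KRP7* fell (-2.83), as did *E2Fb*, a transcription factor of S phase entry (-2.67), while the inhibitor gene *KRP2* rose (2.51).

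For G2/M 7 of 38 core genes rose and 4 fell (median 1.17, or 0.99 with bounds), beside 21.1% and 12.8% of all loci. The rises were at low levels, for example *CYCB1;2* with 1.23, 2.42 and 1.63 CPM at Day 4, against 0.19, 0 and 0.219 CPM at Day 0, a ratio of 13.5-fold (95% counting interval 3.43 to 116). *CDKB1;1*, a plant-specific mitotic kinase, averaged 1.87 CPM at Day 4 and 0.363 CPM at Day 0, and *APC2* and *APC6*, of the anaphase-promoting complex, rose by 3.47 and 3.08 on the log2 scale. *CYCB1;1* had 0.409, 0.692 and 0.407 CPM at Day 4, against 1.71, 2.21 and 1.75 CPM at Day 0 (log2FC = -1.89, FDR = 8.53e-04). Of the 4 falls, 3 were *MYB3R* genes, whose products activate or repress G2/M genes. The repressor *MYB3R5* had 3.4, 5.71 and 4.27 CPM at Day 4, against 73.4, 67 and 87 CPM at Day 0 (log2FC = -4.1 ± 0.19). *MYB3R3*, another repressor, and *MYB3R1*, which can do both, fell by 2.71 and 2.55 on the log2 scale. The activator *MYB3R4* had 4.36, 5.19 and 3.66 CPM at Day 4, against 4.94, 7.14 and 3.95 CPM at Day 0 (log2FC = -0.29 ± 0.28, FDR = 0.333). In a larger set of 174 genes expressed in G2/M phase 58 rose and 11 fell (median 1.83, or 1.01 with bounds).

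Transcription factors linked with regeneration were divided between rises and falls. Of 19 tested 7 rose and 3 fell, beside 21.1% and 12.8% of all loci (median 0.30). *ESR1*, an AP2/ERF factor of shoot regeneration, had 14.2, 13.3 and 20.9 CPM at Day 4 and no read at Day 0 (at least 82.4-fold). *PLT7*, of the PLETHORA family, had 13.1, 9.52 and 9.56 CPM at Day 4, against 0, 0.17 and 0 CPM at Day 0, a ratio of 172-fold (95% counting interval 30.6 to 6843). *PLT3* had 3.27, 5.54 and 4.27 CPM at Day 4, against 0.38, 0 and 0 CPM at Day 0, and *PLT5* had 5.04, 5.19 and 2.24 CPM at Day 4, against 0.38, 0.34 and 0.658 CPM at Day 0. All 3 *PLT* genes were thus near 0 in fresh protoplasts and at 2.24 to 13.1 CPM after culture. *ERF114* (53.2 CPM at Day 4 and 1.14 CPM at Day 0) and *WIND3* also rose. *ERF109* had 12.8, 18.2 and 12.8 CPM at Day 4, against 168, 229.9 and 189 CPM at Day 0 (log2FC = -3.74), and *ABR1* had 121, 159.6 and 61 CPM at Day 4, against 1216, 1347 and 1329.8 CPM at Day 0 (log2FC = -3.51). Both are quickly induced by wounding in Arabidopsis. *WIND1*, an inducer of callus at wounds, had 257 CPM at Day 4 and 301 CPM at Day 0 (log2FC = -0.23, FDR = 0.154).

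Heat shock genes were the only list here in which every member fell. All 11 fell, beside 12.8% of all loci, with a median log2FC of -3.55, or -2.47 under library totals alone. *HSP101*, a disaggregase, had 359, 391 and 242 CPM at Day 4, against 11794, 9009 and 16323 CPM at Day 0 (log2FC = -5.22 ± 0.39, FDR = 1.22e-10). *HSP90.1* had 631, 766 and 491 CPM at Day 4, against 17360.3, 13301 and 21805 CPM at Day 0 (log2FC = -4.8 ± 0.42). *HSFA2*, a heat shock factor, averaged 81.9 CPM at Day 4 and 1556 CPM at Day 0. The Day 0 libraries were thus the high ones for each of these genes, and intact leaves were not analysed here.

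Detoxification genes changed in both directions. Of 28 glutathione transferases 6 rose and 11 fell, beside 21.1% and 12.8% of all loci, so that the rises were no more than the share among all loci, and the median of -1.04 turned to 0.01 under library totals alone. *GSTF8* had 476, 588 and 409 CPM at Day 4, against 12312, 11538 and 12952 CPM at Day 0 (log2FC = -4.64 ± 0.21). *GSTU19* had 1643, 1705 and 1850.2 CPM at Day 4, against 11622, 9399 and 13244 CPM at Day 0 (log2FC = -2.72 ± 0.16). Against this, *GSTF9* had 1081, 1049.8 and 1429 CPM at Day 4, against 23.4, 28.4 and 18.4 CPM at Day 0 (log2FC = 5.66 ± 0.19). *NADP-ME2*, a cytosolic NADP-malic enzyme, had 502, 588 and 559 CPM at Day 4, against 14215, 15661 and 15064 CPM at Day 0 (log2FC = -4.77), and *OPR1*, an oxophytodienoate reductase, averaged 802 CPM at Day 4 and 13724 CPM at Day 0.

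Wound and jasmonate genes changed in both directions. Of 12 rapid wound and stress factors 5 fell and 1 rose, beside 12.8% and 21.1% of all loci (median -0.91, turning to 0.15 under library totals alone). *WRKY40* had 86.3, 81.2 and 59.8 CPM at Day 4, against 1229, 1346 and 1078 CPM at Day 0 (log2FC = -4.0 ± 0.2). *ZAT12* averaged 225 CPM at Day 4 and 2356 CPM at Day 0. Of 22 jasmonate genes 4 fell and 2 rose, beside 12.8% and 21.1% of all loci (median -0.57, turning to 0.49 under library totals alone). Among the enzymes of synthesis *AOC2* had 238, 278 and 194 CPM at Day 4, against 2737, 2769 and 2368 CPM at Day 0 (log2FC = -3.47), and *AOS* had 277, 322 and 305 CPM at Day 4, against 2133, 2670.1 and 2357 CPM at Day 0 (log2FC = -2.98). *AOC1* fell with them (-3.4), whereas *AOC4*, of the same small family, rose (3.86), as did the repressor gene *JAZ7* (2.08).

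Defence genes changed in both directions. Of 18 defence genes 3 rose and 7 fell, beside 21.1% and 12.8% of all loci, and the median of -1.12 was -0.06 under library totals alone. *PR4*, a hevein-like protein, had 2146, 1892 and 2382 CPM at Day 4, against 3.99, 3.06 and 7.24 CPM at Day 0 (log2FC = 8.84 ± 0.37). *PR3*, a chitinase, had 357, 386 and 402 CPM at Day 4, against 0, 0.85 and 0.219 CPM at Day 0 (log2FC = 9.9 ± 0.34). *PR1* had 382, 467 and 664 CPM at Day 4, against 22.4, 27.4 and 18.2 CPM at Day 0 (log2FC = 4.47 ± 0.31). These 3 rose. *ICS1*, the isochorismate synthase of salicylic acid synthesis, had 23.2, 18 and 29.9 CPM at Day 4, against 114, 162 and 173 CPM at Day 0 (log2FC = -2.67 ± 0.18). *PR2*, a β-1,3-glucanase, had 5.86, 5.19 and 4.07 CPM at Day 4, against 89.2, 128 and 84.4 CPM at Day 0 (log2FC = -4.29 ± 0.41). *PR5*, *WRKY70*, *WRKY33* and *ALD1* fell with them (-5.48, -2.5, -2.12 and -2.21).

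Lists tied to aging, low oxygen and darkness differed in their counts. Of 12 senescence genes 6 fell and none rose, beside 12.8% and 21.1% of all loci (median -2.05, or -1.59 with genes below the floor set to 0), among them the regulator *NAP* with 9.51 CPM at Day 4 and 59.5 CPM at Day 0. Of 11 hypoxia genes 3 fell, beside 12.8% of all loci, and these were *HRE2* (-4.27), *LBD41* (-3.57) and *SUS1* (-2.47). Of 8 dark-induced genes 2 rose and 2 fell in this dark culture, beside 21.1% and 12.8% of all loci. *DIN2*, a β-glucosidase, had 650.4, 894 and 493 CPM at Day 4, against 38.8, 24.3 and 39.7 CPM at Day 0 (log2FC = 4.31), and *DIN9* had 20.4, 34.1 and 15.1 CPM at Day 4, against 288, 319 and 273 CPM at Day 0 (log2FC = -3.65). None of 14 autophagy genes and none of 11 clock genes passed the limit of 2. At the limit of 1, 6 of each were lower, beside 27.3% of all loci. The autophagy median was -0.89, turning to 0.17 under library totals alone, and the clock median was -1.11, or -0.05 under library totals alone. Of 7 light signalling genes *PIF4* fell (-3.16), and *HY5* had 5.46 CPM at Day 4 and 1.63 CPM at Day 0.

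**Figure D4:**
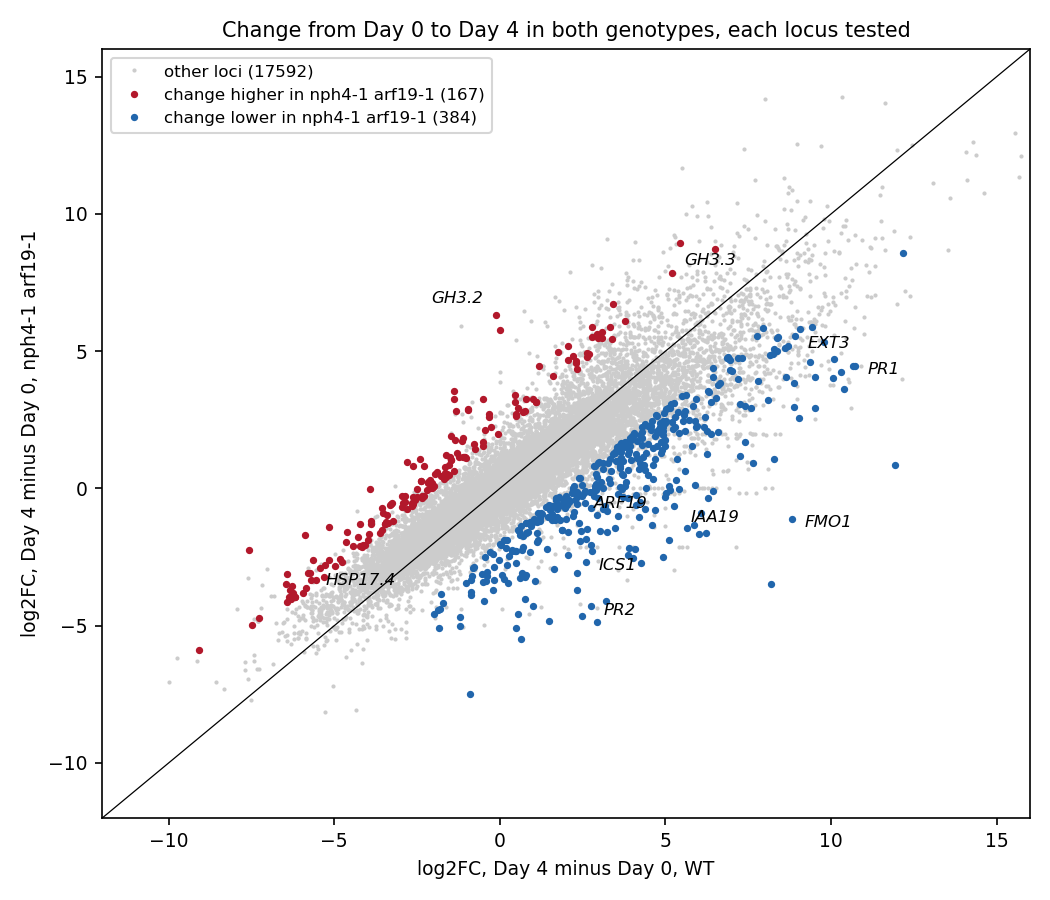
log2FC from Day 0 to Day 4 in *nph4-1 arf19-1* (vertical axis) against that in WT (horizontal axis) for each of 18143 loci. Red points are the 167 loci with a change higher in the mutant by the test of the difference, blue points the 384 with a change lower in the mutant, grey points all others, and the line marks equal change. Most loci lie near the line, with *GH3.2* far above it and *PR2*, *ICS1* and *FMO1* far below it.

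The change itself differed between the genotypes at few loci. By edgeR's test of the difference, the change was higher in *nph4-1 arf19-1* than in WT at 167 loci (0.92%) and lower at 384 (2.12%), with the same limits, which makes 551 loci (3.04%). The count of 167 was 268 without replicate 1 of WT Day 4. Of the 481 loci that rose in the mutant alone 26 had a larger change by this test, and of the 386 that fell in the mutant alone 73 had a lower one. Of the 1295 loci that rose in WT alone 175 had a lower change in the mutant by the test, and of the 788 that fell in WT alone 55 had a higher one. Most genes past the limits in 1 genotype alone were thus not shown to differ in their change.

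*GH3.2* had the largest positive difference among the loci named by rule. In WT it had 487, 299.7 and 353 CPM at Day 4, against 412, 389 and 435 CPM at Day 0, so WT protoplasts were already high when isolated and the mutant reached its own level only in culture. The difference in log2FC was 6.43 ± 0.29 (FDR = 3.52e-11). *GH3.3* had 2432, 1806 and 2049.8 CPM in WT at Day 4, against 46.9, 60.3 and 63.6 CPM in WT at Day 0, a difference of 2.63 ± 0.24 (FDR = 6.14e-07). *UPI*, a protease inhibitor, rose in both genotypes, to 699 CPM in the mutant and 119 CPM in WT (difference 3.49 ± 0.52). *HSP21*, a chloroplast small heat shock protein, fell in both, to 9.04 CPM in the mutant and 0.305 CPM in WT (difference 3.3 ± 0.74). *AT4G06597* and *AT5G03710* had the same difference of 3.85 with nearly the same values in every library, so their separate levels are uncertain, and whether they share reads was not tested.

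Of the 5 largest negative differences named by the rule, which asks for 50 CPM in the mutant, 3 were in defence genes, *PR2*, *PR1* and *ICS1*. *PR2* had 16, 59.2 and 71.7 CPM in WT at Day 4, against 5.54, 9.21 and 6.26 CPM in WT at Day 0, where the mutant had a mean of 5.04 CPM at Day 4 and 101 CPM at Day 0. The difference was -7.05 ± 0.57 (FDR = 1.83e-07). *ICS1* had 19.4, 19.3 and 20.5 CPM in WT at Day 4, against 3.17, 3.93 and 2.29 CPM in WT at Day 0, a difference of -5.27 ± 0.31 (FDR = 1.64e-09). *PR1* had 529.8, 379.8 and 362 CPM in WT at Day 4, against 0.198, 0.135 and 0.417 CPM in WT at Day 0 (difference -6.25 ± 0.71). At Day 4 the mutant and WT means of *PR1* were 504 and 424 CPM, and at Day 0 they were 22.7 and 0.25 CPM. Of the 18 defence genes 8 had a lower change in the mutant, against 2.12% of all loci, and none a higher one. The list's median log2FC was -1.12 in the mutant and 1.56 in WT, while the median of the differences gene by gene was -0.74. *FMO1* and *ALD1*, both of systemic acquired resistance, differed by -9.93 and -6.28. *AT3G28580*, an ATPase gene, and *GASA6*, a gibberellin-regulated gene, also had higher means in the mutant at Day 0 (6.65 and 1.22 CPM) than in WT (0.0903 and 0.198 CPM).

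**Figure D5:**
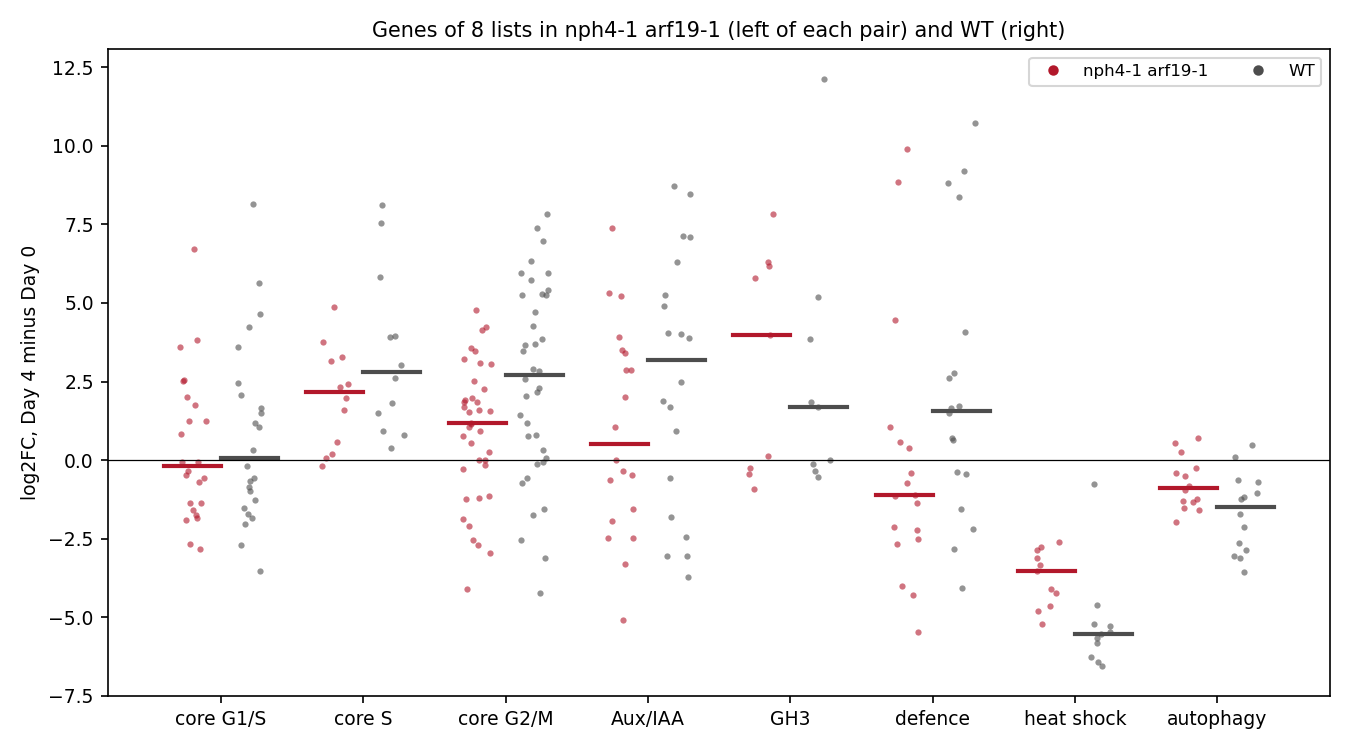
log2FC from Day 0 to Day 4 of every gene tested in 8 lists, in *nph4-1 arf19-1* (red, left of each pair) and WT (grey, right of each pair), with bars at the medians. The medians of core G2/M genes were 1.17 in the mutant and 2.72 in WT, those of *GH3* genes 3.99 and 1.69, those of defence genes -1.12 and 1.56, and those of heat shock genes -3.55 and -5.54. Taken gene by gene, the median difference (mutant minus WT) was -1.04 for core G2/M and 0.10 for *GH3* genes. It was -0.74 for defence and 1.34 for heat shock genes.

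Some G2/M phase genes also differed in their change between the genotypes. Of 174 genes expressed in G2/M phase 21 had a lower change in the mutant, against 2.12% of all loci, and none a higher one, with medians of 1.83 in the mutant and 3.81 in WT. Of the 38 core G2/M genes the difference passed at 1, beside 2.12% of all loci with a lower change. This gene, *CDC20.1*, an activator of the anaphase-promoting complex, had 0.953, 2.77 and 1.42 CPM at Day 4 and 0.76, 0.34 and 0.439 CPM at Day 0 in the mutant. In WT it had 15.2, 34.7 and 18.5 CPM at Day 4 and 0.198, 0.135 and 0 CPM at Day 0 (difference -5.72, FDR = 0.00791). None of the core G1/S or S phase genes passed. The median difference in log2FC was -1.47 for core S phase genes, -1.04 for core G2/M genes and -0.19 for core G1/S genes. Of 169 genes expressed in S phase 6 had a lower change in the mutant and none a higher one. That no core S phase gene passed therefore does not show an equal change in both genotypes. For *Aux/IAA* genes 2 had a lower change in the mutant, *IAA19* (-5.89) and *IAA7* (-3.26). *IAA19* had 3.27, 4.67 and 4.27 CPM at Day 4 and 5.51, 8.33 and 4.39 CPM at Day 0 in the mutant, whereas in WT it had 85.3, 93.6 and 96.5 CPM at Day 4 and 2.18, 2.84 and 1.88 CPM at Day 0. *CKX3* averaged 1.11 CPM at Day 4 and 0.596 CPM at Day 0 in the mutant, and 73 CPM at Day 4 and 0 CPM at Day 0 in WT. Of 11 heat shock genes 4 had a higher change (a smaller fall) in the mutant and 1, *HSP18.2*, a lower one (-2.08), against 0.92% and 2.12% of all loci. The smaller falls included *HSP17.4*, with 488 CPM at Day 4 in the mutant and 47.7 CPM at Day 4 in WT. *WOX13* (-2.32) and *EXT3* (-3.34) had a lower change in the mutant.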

How the data were processed

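Reads from *nph4-1 arf19-1* and WT protoplasts were mapped to TAIR10 with Bowtie 0.12.9 by the authors, who kept unique hits and deposited whole-number tag counts for 32294 splice variants, not normalized, with a total of mapped reads per library. Each of 24532 loci was read through its lowest-numbered splice variant, since variants share reads. Of the loci, 24193 were matched by ID to the TAIR10.1 RefSeq annotation, the source of locations, transcript lengths and upstream sequence. Coordinates of TAIR10 were not used.

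All 18 libraries entered 1 edgeR 4.0.16 model (R 4.3.3) with 6 group means, the authors' totals as library sizes and TMM scaling, so that the spread was estimated over all groups (biological coefficient of variation 0.1316). The labels of the Day 6 *nph4-1 arf19-1* libraries name yucasin, and these entered the filter, the scaling and that estimate but no comparison. filterByExpr (minimum count 10, minimum total 15) kept 18143 loci. Quasi-likelihood F tests gave Benjamini-Hochberg FDRs over all of them for Day 4 minus Day 0 in each genotype and for the difference between the 2. Each SE of a log2FC was derived from its test, as the size of the log2FC divided by the square root of F. On simulated counts for 17624 loci, 100% of 8-fold changes were called at the limit of 2. At the limit of 1, 96% of log2 changes of 1.5 and 1 unchanged locus were called. The simulation changed only a small set of loci, none of them near 0 reads, equally up and down. It therefore does not cover loci with few reads or a change as broad as the one between these days.

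Genes named are the 12 largest rises and 12 largest falls past the limits with a mean of at least 50 CPM in the higher group and no overlap between days, the 10 nuclear loci with the highest CPM per kb on each day, the 2 highest and 2 lowest changes of each list among members past the FDR, a set of genes the study names for culture or auxin signalling, and the 5 largest genotype differences in each direction among loci past the limits in the mutant with at least 50 CPM. Further list members were chosen after their values were seen. The members and lists were chosen with earlier results of these data known. Lists follow the study's categories or textbook families. Genes without Day 0 reads are given as lower bounds with a floor of 3 reads over the group, and those with 1 to 3 reads as ratios with an exact interval that covers counting error only. 3 reads in 1 library were worth 0.409 to 0.61 CPM at Day 4 and 0.51 to 0.658 CPM at Day 0. Same-numbered Day 4 and Day 0 libraries did not deviate together, and no pairing was used. *LBD33* was not analysed here, and 1 gene that the rule names is not reported here. Alternatives covered scaling, test, filter, splice variant, libraries in the fit, a replicate block and each library left out.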

Additional observations from a re-analysis of the deposited data

Results flagged for a closer look

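The change from Day 0 to Day 4 differed between *nph4-1 arf19-1* and WT at 551 of the loci tested, by edgeR's test of the difference. The genes below are those named in the report at which it did, each with the log2FC in the mutant minus the log2FC in WT and the adjusted p of that test.

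Among auxin-related genes the difference was 6.43 for *GH3.2* (FDR = 3.52e-11), 5.79 for *GH3.4* (FDR = 8.74e-04) and 2.63 for *GH3.3* (FDR = 6.14e-07). It was -2.13 for *GH3.10* (FDR = 0.00348), -5.89 for *IAA19* (FDR = 6.48e-10), -3.26 for *IAA7* (FDR = 7.43e-04) and -2.75 for *ARF19* (FDR = 7.79e-07), 1 of the 2 mutated genes. *CKX3*, a cytokinin oxidase gene, had the lowest value among the genes named here, -11.09 (FDR = 2.68e-05), and 0 reads in all 3 Day 0 libraries of WT, so that this value depends on the prior count of the model.

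Among defence genes the difference was -9.93 for *FMO1* (FDR = 6.63e-07), -7.05 for *PR2* (FDR = 1.83e-07), -6.28 for *ALD1* (FDR = 1.05e-04) and -6.25 for *PR1* (FDR = 8.15e-06). It was -6.11 for *PR5* (FDR = 2.48e-04), -5.27 for *ICS1* (FDR = 1.64e-09) and -2.06 for *WRKY70* (FDR = 3.07e-05). *AT3G28580* (-6.05, FDR = 6.86e-07) and *GASA6* (-4.44, FDR = 0.00507) also had a lower change in the mutant.

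Of 11 heat shock genes 4 had a smaller fall and 1, *HSP18.2* (-2.08, FDR = 0.00478), a larger one in the mutant. Among small heat shock genes the differences included 3.3 for *HSP21* (FDR = 0.00368), 3.19 for *AT1G52560* (FDR = 3.99e-04) and 3.04 for *HSP17.4* (FDR = 4.61e-04). The protease inhibitor gene *UPI* differed by 3.49 (FDR = 9.92e-05), *LTP1* by 2.17 (FDR = 0.00483), and *AT4G06597* and *AT5G03710*, whose values were nearly equal in every library, by 3.85 and 3.85.

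Wall, plastid and regulatory genes with a lower change in the mutant were *XTH4* (-6.96, FDR = 1.28e-06), *EXT3* (-3.34, FDR = 8.15e-06), *CDC20.1* (-5.72, FDR = 0.00791), *PORB* (-2.46, FDR = 0.00274) and *WOX13* (-2.32, FDR = 1.68e-05). The parts of Day 0 and of Day 4 in these differences were not tested apart.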

How the results depend on the processing

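The counts of changed loci stayed within 1.5 times of their values under DESeq2 size factors, DESeq2's test, no filter, the highest-count splice variant, the 6 mutant libraries alone (run for the mutant's change) and the fit without organelle-encoded loci, an alternative chosen after seeing the data. Under library totals alone 6570 loci rose and 841 fell in *nph4-1 arf19-1*, and 7284 rose and 1135 fell in WT. At a limit of 1 for log2FC, 10939 loci changed in the mutant (5981 higher and 4958 lower) and 11937 in WT (5213 lower), and 1594 differed between genotypes (801 higher and 793 lower). With each library left out in turn, 6038 to 6272 loci changed in the mutant (3678 to 3884 higher and 2215 to 2388 lower), and 7217 to 7463 in WT (4517 to 4650 higher and 2677 to 2824 lower). Those that differed between genotypes numbered 409 to 678, with 122 to 268 higher and 256 to 410 lower. The 268 came without replicate 1 of Day 4 WT, the 122 without replicate 2 of Day 4 *nph4-1 arf19-1*, and the 409 and 256 without replicate 2 of Day 0 *nph4-1 arf19-1*.

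Library totals alone turned the sign of the median log2FC of photosystem II (0.57), chlorophyll synthesis (0.6), the core G1/S phase (0.86), jasmonate (0.49), rapid wound and stress factors (0.15), glutathione transferases (0.01), dark-induced genes (0.85), light signalling (0.77) and autophagy (0.17). They did so for *GSTF7* (0.3), *GSTF6* (0.19), *ARF19* (0.79), *WIND1* (0.83), *XTH4* (0.17), *GH3.9* (0.81), *IAA19* (0.43), *GH3.10* (0.62), *WOX13* (0.65), *MYB3R4* (0.76) and *GH3.6* (0.15). The photosystem I median was -1.61 without organelle-encoded loci, where only nuclear members are left, and -0.19 to 0.45 with libraries left out in turn. The core G1/S median was 0.03 with the 6 libraries only. With libraries left out in turn, log2FC ran over -0.05 to 0.5 for *PCNA1*, -0.11 to 0.22 for *PCNA2*, -0.54 to 0.04 for *GH3.9*, -0.67 to 0.04 for *GH3.10* and -0.07 to 0.49 for *GH3.5*. Beyond the scaling and the loci left out, the cause was not tested.

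With the replicate number as a block, 6143 loci changed in the mutant (3822 higher and 2321 lower), 7350 in WT, and 565 differed between genotypes (175 higher and 390 lower). Day 4 and Day 0 libraries of the same number had correlations of 0.0015, -0.0305 and -0.0227 in their deviations, so the number was not taken as a pairing. Depth limits loci without reads, for which 3 reads over the group allow up to 0.166 CPM at Day 4 and 0.191 CPM at Day 0.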
